A study of Mus musculus with 16 samples.

Results

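The MYC and MAX network genes examined here are Myc, Mycn, Bmyc, Max, Mxd1, Mxd3, Mxd4, Mxi1, Mnt and Mlx, chosen by gene symbol, and they make up 10 of the 53090 genes in each deposited table. Their transcripts were measured by RNA sequencing in 16 libraries of mouse CD4+ T cells, with 4 libraries in each of 4 groups. WT Tn and Aim2-/- Tn were naïve CD4+ T cells taken freshly from the spleen and not cultured. WT Treg and Aim2-/- Treg were CD4+ T cells of the same genotypes after 2 days (48 h) of culture under Treg conditions, with antibodies against CD3 and CD28, recombinant human TGF-beta and recombinant mouse IL-2. No group was stimulated without TGF-beta, so stimulation, time in culture and Treg conditions cannot be told apart in the culture comparisons. Per the study's methods, both genotypes were on the C57BL/6 background and matched for sex and age; the ages themselves are not given in the sources used here. Naïve cells were selected with magnetic beads rather than sorted, so a minority of other cells could be present. The labels number the libraries 1 to 4 within a group and do not say whether a cultured library and a naïve library of the same number share an animal. Where nothing states separate animals or cultures, p-values measure the spread between these libraries, which may be partly technical. AIM2 is a sensor of cytosolic DNA, and the comparisons ask how the network's transcripts differ between naïve and cultured cells and between genotypes.

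MYC is a transcription factor that binds DNA as a heterodimer with MAX, mostly at E-box sequences, and raises the transcription of genes for growth, nucleotide synthesis, ribosome production and cell cycle entry. MAX also pairs with the MXD proteins and MNT, which bring the SIN3 histone deacetylase complex to E-boxes and repress. MLX is the MAX-like partner of MondoA, a glucose-responsive factor encoded by Mlxip, and can pair with some MXD proteins and with MNT. In T cells, MYC is known to be induced by antigen receptor signals and to drive the metabolic change that precedes division.

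Library totals ran from 22516424 to 34533316 counts, and the floor of 3 counts lay between 0.087 and 0.133 CPM, the count scaled by library size. Aim2, the targeted gene, ran from 6.61 to 10.8 CPM in the Aim2-/- libraries and from 32.3 to 43.3 CPM in the WT libraries, lower but not at 0. Its log2 fold change was -2.24 in Tn (edgeR, adjusted p = 1.1e-05) and -2.12 in Treg (edgeR, adjusted p = 0.00013). The summed level of 5 CD4 T cell markers was 2660 to 2990 CPM over the Tn libraries and 1050 to 1180 CPM over the Treg libraries, and that of 4 Treg markers ran from 23 to 89 CPM over the former and from 1650 to 2170 CPM over the latter. Of the other cell types checked, B cell markers summed to at most 2.27 CPM, with Ms4a1 at 0 in all libraries. Myeloid markers summed to 12.3 to 19.9 CPM in Tn and 1.79 to 3.92 CPM in Treg, where Lyz2 was at 0. NK cell markers summed to 3.71 to 15.1 and 0.304 to 1.97 CPM, with Ncr1 at 0 in Treg. CD8 markers summed to 8.93 to 12.2 and 2.26 to 4.02 CPM, and erythroid markers to 0.672 to 4.99 and 0.0337 to 0.148 CPM, with Hba-a1 at 0 in Treg. These sums are small beside that of the CD4 list and lower in Treg than in Tn, and their part in the results was not tested. In bulk RNA of this kind, fewer cells of a type and less RNA per cell cannot be told apart.

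With Treg culture, Myc rose 3.50-fold in WT and 3.34-fold in Aim2-/- cells, Mxd3 rose from less than 1 CPM to between 15.3 and 21.3 CPM, and Mxd4 was 5.92-fold and 5.74-fold lower. In the WT comparison 6 of the 9 members tested passed edgeR's quasi-likelihood test at an adjusted p under 0.05, against 76.9% of all 13675 genes tested. Myc, Bmyc, Max and Mxd3 were higher and Mxd4 and Mnt lower, where 37.7% of all genes were higher and 39.2% lower. In the Aim2-/- comparison 7 of 9 passed, against 79.3% of 13713 genes. Myc, Bmyc, Max, Mxd3 and Mxi1 were higher and Mxd1 and Mxd4 lower, where 39.1% of all genes were higher and 40.2% lower. The share of members called was thus not above that of all genes in either comparison. The median log2 fold change over the tested members was 0.23 in WT and 0.37 in Aim2-/-, against -0.05 and -0.04 over all genes. Levels did not overlap between Treg and Tn for 5 members in WT, against 72.9% of all genes, and for 6 in Aim2-/-, against 74.8%.

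**Figure D1:**
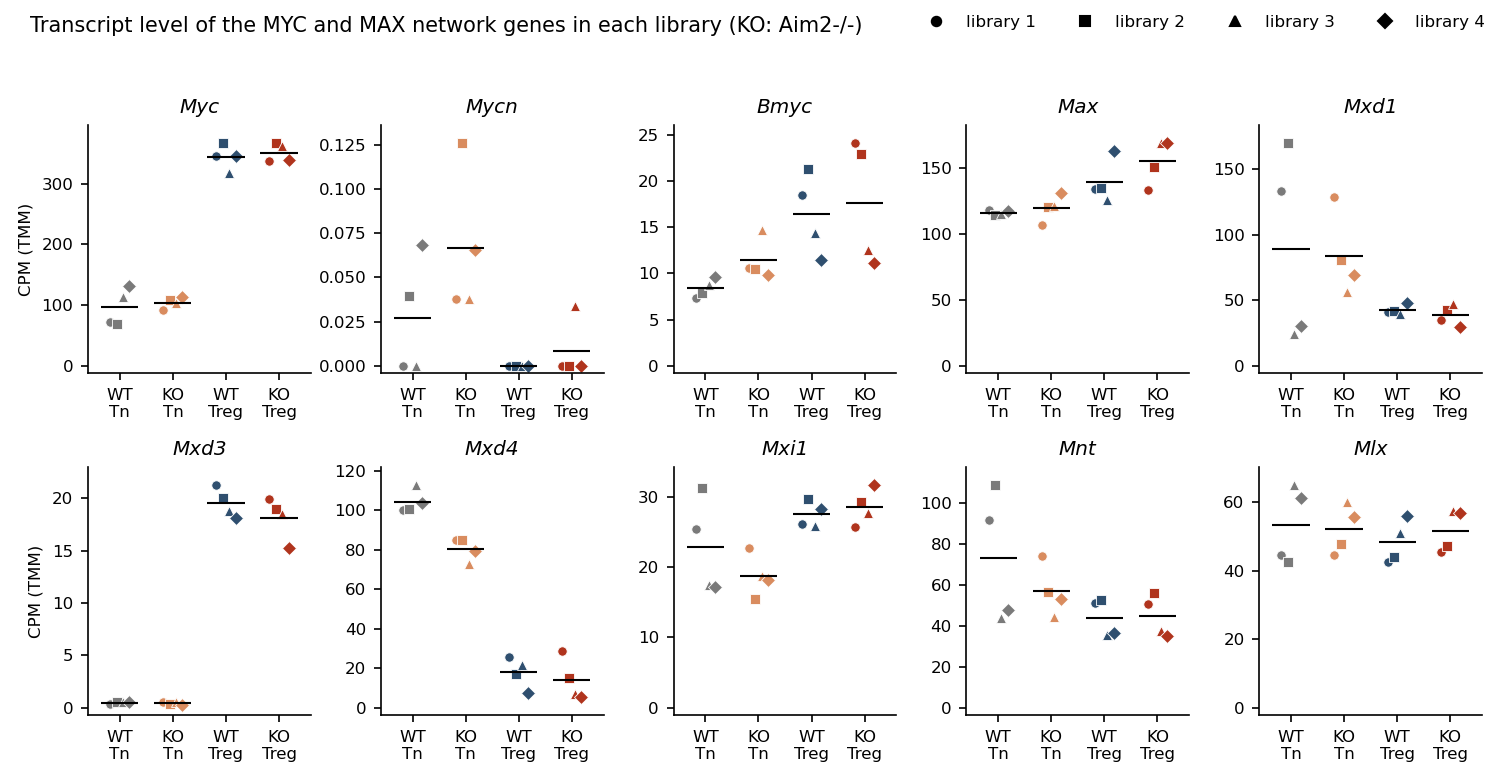
Level of each of the 10 members in each of the 16 libraries, in CPM with TMM factors on a linear axis per gene; marker shapes give the library number, horizontal bars the group mean (n = 4), and KO stands for Aim2-/-. Myc, Mxd3 and Mxd4 separate Treg from Tn without overlap in both genotypes, while Mxd1 and Mnt spread widely among the WT Tn libraries.

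Myc (ENSMUSG00000022346.15, chr15:61985391-61990374 on the plus strand of GRCm38) encodes the activating partner of the network. In WT Tn its level was 71.5, 68.8, 113 and 131 CPM in libraries 1 to 4, and in WT Treg it was 345, 367, 317 and 346 CPM. In Aim2-/- Tn it was 91.1, 109, 103 and 113 CPM, and in Aim2-/- Treg 337, 366, 361 and 338 CPM. Every Treg library was above every Tn library, and the Treg libraries lay closer together than those of WT Tn. The rise was 3.50-fold in WT, a log2 fold change of 1.81 ± 0.20 (SE; edgeR, adjusted p = 2.6e-05), and 3.34-fold in Aim2-/-, 1.74 ± 0.08 (SE; edgeR, adjusted p = 7.2e-09). WT Tn libraries 1 and 2 were lower than libraries 3 and 4, and within those pairs of numbers the WT change was 2.36 and 1.40; in Aim2-/- it was 1.78 and 1.67.

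Mycn (ENSMUSG00000037169.15, chr12:12936093-12941914, minus strand) encodes the paralogue best known from neural and early progenitor cells. It had 0 to 4 counts in every library, with 0 counts in all 4 WT Treg libraries, so that it stayed near the floor and could not be tested. Bmyc (ENSMUSG00000049086.8, chr2:25706739-25707721, plus strand) encodes a short relative of MYC that lacks the DNA-binding and dimerization domain. Its level in WT Tn was 7.36, 7.91, 8.70 and 9.61 CPM, and in WT Treg 18.5, 21.3, 14.4 and 11.4 CPM. In Aim2-/- Tn it was 10.6, 10.5, 14.7 and 9.78 CPM, and in Aim2-/- Treg 24.1, 22.9, 12.5 and 11.1 CPM. The WT groups did not overlap and the Aim2-/- groups did, and in both Treg groups libraries 1 and 2 were the high ones.

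The log2 fold change of Bmyc was 0.94 ± 0.19 (SE) in WT (edgeR, adjusted p = 0.0015) and 0.62 ± 0.26 in Aim2-/- (edgeR, adjusted p = 0.049). The Aim2-/- call did not hold without Tn library 1 (0.53), 2 (0.54) or 4 (0.50), nor without Treg library 1 (0.48) or 2 (0.51), and it was lost with upper quartile scaling (0.45), limma-voom (0.55), no filter (0.66) and at least 10 counts in every library (0.59). In Aim2-/- libraries 3 and 4 alone the value was -0.08, against 1.12 in libraries 1 and 2; in WT the corresponding values were 0.45 and 1.40. RSEM gave Bmyc counts that were not whole numbers in 14 of 16 libraries, which means that part of its reads was shared with other genes and divided between them by the estimate.

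Max (ENSMUSG00000059436.13, chr12:76937269-76962201, minus strand) encodes the obligate partner of MYC and of the MXD proteins. It was the steadiest member in WT Tn, at 118, 114, 115 and 117 CPM, and stood at 134, 135, 126 and 163 CPM in WT Treg. In Aim2-/- Tn it was 107, 120, 121 and 131 CPM, and in Aim2-/- Treg 133, 151, 169 and 169 CPM. Treg libraries were above Tn libraries in both genotypes, by a small margin. The log2 fold change was 0.23 ± 0.09 (SE) in WT (edgeR, adjusted p = 0.029) and 0.37 ± 0.10 in Aim2-/- (edgeR, adjusted p = 0.0044). The WT call was lost without any one of Tn libraries 1 to 4, at 0.22, 0.20, 0.22 and 0.23, and both calls were lost with upper quartile scaling, at 0.11 and 0.20, a scaling that lowered the median of all genes by 0.12 and 0.17 on the log2 scale. Calls were lost as well in WT libraries 3 and 4 alone (0.28) and in Aim2-/- libraries 1 and 2 alone (0.28).

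The members that pair with MAX and repress did not move together. Mxd3 (ENSMUSG00000021485.14, chr13:55325168-55329823, minus strand), whose product is known from proliferating cells in S phase, was at 0.345, 0.553, 0.507 and 0.579 CPM in WT Tn and at 21.3, 20.0, 18.8 and 18.1 CPM in WT Treg. In Aim2-/- Tn it was at 0.525, 0.378, 0.563 and 0.295 CPM and in Aim2-/- Treg at 19.9, 19.0, 18.5 and 15.3 CPM. The Tn values rest on 8.87 to 17.4 counts a library, above the floor, and the Treg values on 411 to 691. The rise was 38.4-fold in WT, 5.26 ± 0.17 on the log2 scale (SE; edgeR, adjusted p = 5.9e-09), and 41.1-fold in Aim2-/-, 5.36 ± 0.21 (SE; edgeR, adjusted p = 9.9e-10). In the Aim2-/- comparison Mxd3 passed the filter on low counts through its Treg libraries. It also had counts that were not whole in all 16 libraries.

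Mxd4 (ENSMUSG00000037235.13, chr5:34173883-34187720, minus strand), the family member best known from resting and differentiated cells, went the other way. It was at 100, 101, 113 and 104 CPM in WT Tn and at 25.8, 17.2, 21.6 and 7.30 CPM in WT Treg. The Aim2-/- Tn libraries were at 85.1, 85.0, 72.9 and 79.3 CPM, and the Aim2-/- Treg libraries at 29.0, 15.1, 7.07 and 5.46 CPM. No Treg library reached any Tn library, but the Treg libraries differed among themselves by 3.54-fold in WT and 5.31-fold in Aim2-/-. The fall was 5.92-fold in WT, -2.57 ± 0.30 on the log2 scale (SE; edgeR, adjusted p = 5.8e-05), and 5.74-fold in Aim2-/-, -2.52 ± 0.42 (SE; edgeR, adjusted p = 0.00031).

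Among the Treg libraries, the low Mxd4 values came with low values of Foxp3, the transcription factor that defines Treg cells, which was picked from the marker lists after its values were seen. Foxp3 was 560, 573, 496 and 278 CPM in WT Treg and 560, 523, 329 and 288 CPM in Aim2-/- Treg. WT Treg library 4 and Aim2-/- Treg libraries 3 and 4 were the 3 lowest for both Mxd4 and Foxp3. Another gene of the 4 on the Treg list, Ikzf2, also picked after its values were seen, went the other way, with its 3 highest Treg values, 14.7, 11.6 and 6.76 CPM, in these libraries. The whole Treg list summed to 1730 to 2170 CPM in WT Treg and 1650 to 2060 CPM in Aim2-/- Treg. The summed level of all 5 naïve T cell markers, each detected in every group, ran from 461 to 646 CPM in WT Treg and from 370 to 645 CPM in Aim2-/- Treg. The part of these markers in the Mxd4 values was not tested.

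Mxd1 (ENSMUSG00000001156.9, chr6:86647042-86669161, minus strand), the founding MXD gene, showed the widest spread of the members in WT Tn. Its level there was 133, 170, 24.0 and 30.6 CPM, and in WT Treg 40.7, 41.5, 39.8 and 47.6 CPM. In Aim2-/- Tn it was 129, 80.9, 55.9 and 68.9 CPM, and in Aim2-/- Treg 35.1, 42.6, 46.9 and 29.3 CPM. WT Tn libraries 1 and 2 lay above all Treg libraries and libraries 3 and 4 below all WT Treg libraries, whereas Aim2-/- Tn and Aim2-/- Treg did not overlap.

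Over all 8 WT libraries the Mxd1 change was -1.11 ± 0.57 (SE; edgeR, adjusted p = 0.11), and in Aim2-/- it was -1.13 ± 0.24 (SE; edgeR, adjusted p = 0.0015). The WT value changed sign with the libraries used. It was -1.87 in libraries 1 and 2 (edgeR, adjusted p = 3.7e-06) and 0.63 in libraries 3 and 4 (edgeR, adjusted p = 0.0076), and -1.42 and -1.39, both called, without Tn library 3 or without Tn library 4. In Aim2-/- the same pairs of numbers gave -1.47 and -0.74. The labels name no batch, so what libraries 1 and 2 share is not known. The pairs split WT Tn where its Mxd1 values part, so fits within a pair leave out most of that spread. Their p-values, on 2 libraries a group, do not measure it.

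Ccr7, a chemokine receptor of naïve T cells on the same marker list, was picked after its values were seen. It followed the Mxd1 pattern in WT Tn, at 1380, 1560, 411 and 419 CPM, and stood at 1110, 676, 643 and 735 CPM in Aim2-/- Tn. The naïve list as a whole summed to 2550 to 3580 CPM in WT Tn and 2610 to 3430 CPM in Aim2-/- Tn. Its part in the Mxd1 values was not tested.

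Mnt (ENSMUSG00000000282.12, chr11:74830920-74845725, plus strand) encodes a broadly expressed repressor that competes with MYC for MAX. It was at 92.0, 109, 43.8 and 47.7 CPM in WT Tn, 51.3, 52.5, 35.6 and 36.7 CPM in WT Treg, 74.2, 56.6, 44.3 and 53.3 CPM in Aim2-/- Tn, and 50.5, 56.2, 37.3 and 35.2 CPM in Aim2-/- Treg. In each of the 4 groups libraries 1 and 2 were above libraries 3 and 4, and Treg and Tn overlapped in both genotypes. The log2 fold change was -0.76 ± 0.30 (SE) in WT (edgeR, adjusted p = 0.043) and -0.36 ± 0.19 in Aim2-/- (edgeR, adjusted p = 0.10).

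The WT call of Mnt was lost without Tn library 1 (-0.64) or 2 (-0.53), without Treg library 1 (-0.80), 2 (-0.81), 3 (-0.63) or 4 (-0.64), and with RLE size factors (-0.71), limma-voom (-0.67) or no filter (-0.71). Within libraries 1 and 2 the WT change was -0.94 (edgeR, adjusted p = 2e-05), and within libraries 3 and 4 it was -0.38 (edgeR, adjusted p = 0.0073). In Aim2-/- the values were -0.32 in libraries 1 and 2 and -0.46 in libraries 3 and 4, the latter called (edgeR, adjusted p = 0.0045). The Aim2-/- value was called as well without Tn library 3 (-0.52), without Treg library 2 (-0.44) and with upper quartile scaling (-0.53). Mnt was lower in Treg under each of these settings, and whether it passed the threshold depended on them.

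Mxi1 (ENSMUSG00000025025.13, chr19:53310518-53375810, plus strand), another MXD-family repressor, was at 25.4, 31.2, 17.5 and 17.2 CPM in WT Tn and at 26.1, 29.7, 25.9 and 28.3 CPM in WT Treg. The Aim2-/- Tn libraries were at 22.7, 15.4, 18.7 and 18.2 CPM, and the Aim2-/- Treg libraries at 25.7, 29.2, 27.7 and 31.7 CPM. The WT groups overlapped and the Aim2-/- groups did not. The log2 fold change was 0.24 ± 0.19 (SE) in WT (edgeR, adjusted p = 0.27) and 0.60 ± 0.12 in Aim2-/- (edgeR, adjusted p = 0.0008). The WT value was called without Tn library 2 (0.40), and was -0.01 in libraries 1 and 2 against 0.60 in libraries 3 and 4.

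Mlx (ENSMUSG00000017801.15, chr11:101087277-101092207, plus strand) was the member with the smallest change in both comparisons. Its level was 44.6, 42.5, 65.1 and 61.2 CPM in WT Tn, 42.6, 44.0, 51 and 55.9 CPM in WT Treg, 44.6, 47.8, 60.2 and 55.8 CPM in Aim2-/- Tn, and 45.4, 47.1, 57.6 and 56.8 CPM in Aim2-/- Treg. Libraries 3 and 4 were above libraries 1 and 2 in each of the 4 groups, the reverse of Mnt. The log2 fold change was -0.17 ± 0.15 (SE) in WT, with a 95% interval of -0.52 to 0.17, and -0.02 ± 0.12 in Aim2-/-, with an interval of -0.28 to 0.23 (edgeR, adjusted p = 0.32 and 0.87). In WT it was 0.00 in libraries 1 and 2, and -0.28 in libraries 3 and 4 (edgeR, adjusted p = 0.027). Mlx and Mxi1 had counts that were not whole in all 16 libraries, Mxd4 in 15, and Myc, Mycn, Max, Mxd1 and Mnt in 0.

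**Figure D2:**
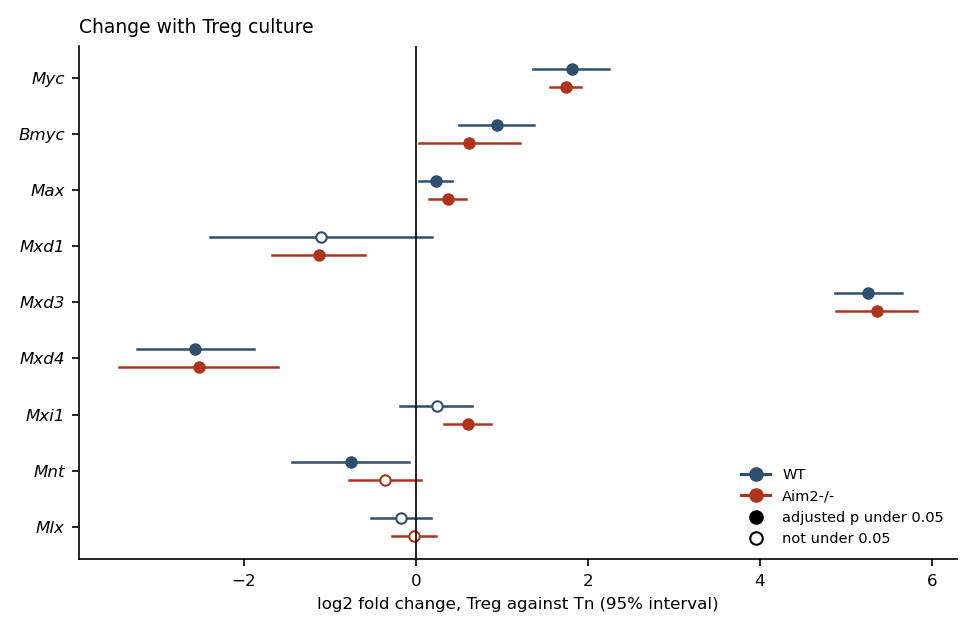
Log2 fold change of Treg against Tn for the 9 members tested, with 95% intervals, in WT and in Aim2-/- libraries (4 against 4 each); filled points have an edgeR adjusted p under 0.05. Mxd3 lies above 5 and Mxd4 near -2.5 in both genotypes, and the WT interval of Mxd1, -2.40 to 0.19, is the widest of the WT intervals.

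To compare members with each other, CPM was divided by exon length in kb. On this per-length scale Myc, Max and Mlx ranked 1, 2 and 3 in all 4 groups by mean, and Mycn ranked 10. Myc was at 35.4 ± 11.4 CPM per kb (SD, n = 4) in WT Tn, next to Max at 32.2 ± 0.582, and their ranges of 25.3 to 48.3 and 31.6 to 32.8 overlapped; Mlx, at 21.3 to 32.6, overlapped both. In WT Treg Myc was at 127 ± 7.60 CPM per kb and Max at 38.8 ± 4.57, without overlap. Mxd3 moved from rank 9 in both Tn groups to rank 6 in both Treg groups, and Mxd4 from ranks 6 and 7 to rank 9. In WT Tn the ranks between 4 and 6, held by Mnt (9.47 to 23.5 CPM per kb), Mxd1 (3.40 to 24.0) and Mxd4 (11.8 to 13.3), overlapped and are not set apart.

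The per-length level of Myc was also set against the sum of the per-length levels of Mxd1, Mxd3, Mxd4, Mxi1 and Mnt, as a description of transcripts with no test. The ratio was 0.484, 0.394, 1.44 and 1.63 in WT Tn and 3.88, 4.22, 4.22 and 4.66 in WT Treg. The Aim2-/- Tn libraries gave 0.700, 1.11, 1.30 and 1.24, and the Aim2-/- Treg libraries 3.94, 4.17, 4.85 and 5.30. All Treg libraries lay above all Tn libraries, and WT Tn libraries 1 and 2 were the lowest. The makeup of the sum differed as well. Mxd3 made up 0.269% to 0.825% of it in Tn libraries and 24.9% to 28.8% in Treg libraries, while Mxd4 made up 18.6% to 45.9% and 2.74% to 10.9%. Mnt kept a share of 27.9% to 37.7% across all 16 libraries.

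**Figure D3:**
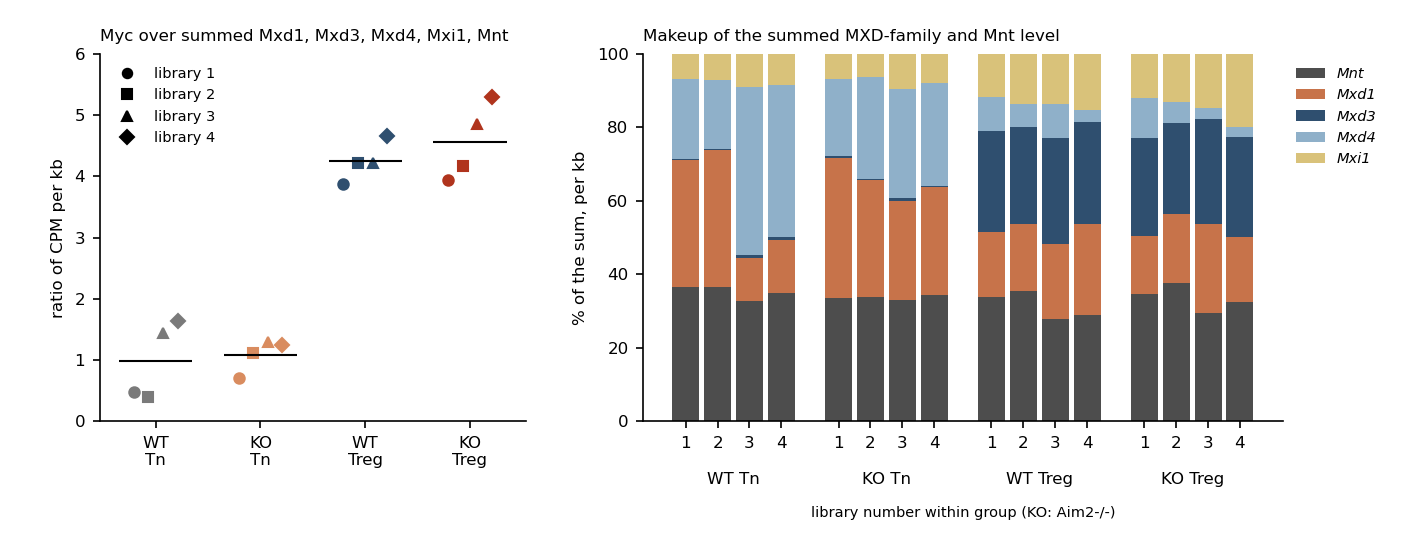
Left, ratio of the Myc level to the summed level of Mxd1, Mxd3, Mxd4, Mxi1 and Mnt in each library, all in CPM per kb of exon, with group means as bars (n = 4); right, the share of that sum held by each gene in each library, in percent. The ratio lies between 0.394 and 1.63 in Tn and between 3.88 and 5.30 in Treg, and the Mxd3 share appears as the Mxd4 share shrinks.

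Between genotypes, in Tn 0 of 9 tested members passed the adjusted threshold with edgeR, where 31 of 13441 genes (0.231%) did, and 2 had an unadjusted p under 0.05, where 10.3% of all genes did. DESeq2 called 1 member and limma-voom 0. The 2 members were Mxd4 and Bmyc, and they were also those whose genotype groups did not overlap in Tn, as was the case for 6.95% of all genes. Mxd4 was lower in Aim2-/- Tn, at 72.9 to 85.1 CPM against 100 to 113 CPM, a log2 fold change of -0.37 ± 0.08 (SE; 95% interval -0.56 to -0.18; edgeR, adjusted p = 0.23). It was -0.39 with DESeq2 (adjusted p = 0.0082), -0.23 in libraries 1 and 2, and -0.52 in libraries 3 and 4 (edgeR, adjusted p = 0.026). Over the other alternatives and the left-out libraries its adjusted p did not pass, and without any one library it ran from 0.20 to 0.59.

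Bmyc was at 9.78 to 14.7 CPM in Aim2-/- Tn and 7.36 to 9.61 CPM in WT Tn, with a log2 fold change of 0.45 ± 0.15 (SE; edgeR, adjusted p = 0.41). Myc differed by 0.12, with a 95% interval of -0.33 to 0.57, and Max by 0.05, with an interval of -0.12 to 0.23. For Mxd1 the value of -0.08 had an interval of -1.65 to 1.48. The difference was -0.51 in libraries 1 and 2 and 1.18 in libraries 3 and 4 (edgeR, adjusted p = 0.0048 for the latter). The 2 pairs of library numbers thus pointed opposite ways, and the p-value within a pair leaves out the spread between pairs. The values of Mxd3 (-0.17), Mxi1 (-0.28), Mnt (-0.35) and Mlx (-0.03) had intervals that included 0.

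In Treg 0 of 9 members passed, where 29 of 13221 genes (0.219%) did. By unadjusted p under 0.05 it was also 0, against 2.30% of all genes, and DESeq2 and limma-voom called 0. Every member overlapped between genotypes, where 2.26% of all genes did not. Myc differed by 0.02, with a 95% interval of -0.10 to 0.15, so that a difference of more than 0.15 on the log2 scale lies outside the interval. The interval of Mxd4 was much wider, -1.59 to 0.89 around -0.35, and its Treg libraries were spread out. With each of the 8 libraries left out in turn its value ran from -0.97, without Aim2-/- Treg library 1, to -0.08, without Aim2-/- Treg library 4. It was 0.03 in libraries 1 and 2 and -1.21 in libraries 3 and 4, and edgeR called none of these. Max differed by 0.15 (-0.08 to 0.38), Mxd1 by -0.14 (-0.46 to 0.17), Mxd3 by -0.11 (-0.34 to 0.11) and Mxi1 by 0.05 (-0.13 to 0.23).

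Whether the change with culture differed between genotypes was tested as an interaction over all 16 libraries. It was called for 3 of 14669 genes (0.0205%) and for 0 members, at an adjusted p of 1 for each; 0 members had an unadjusted p under 0.05, against 3.50% of all genes, and DESeq2 and limma-voom called 0 members. The members called in 1 genotype alone were thus not shown to differ between genotypes. The interaction was 0.34 for Mxi1 (-0.15 to 0.83), 0.38 for Mnt (-0.45 to 1.21), -0.05 for Mxd1 (-1.52 to 1.43) and -0.34 for Bmyc (-1.08 to 0.40), on the log2 scale with 95% intervals.

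**Figure D4:**
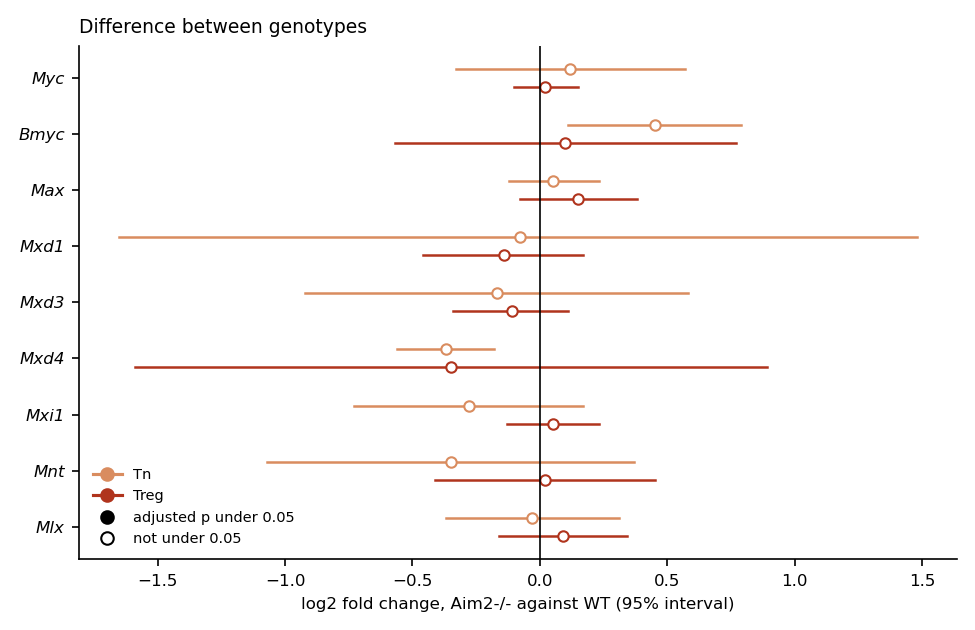
Log2 fold change of Aim2-/- against WT for the 9 members tested, with 95% intervals, in Tn and in Treg libraries (4 against 4 each); no point is filled, since no edgeR adjusted p was under 0.05. The intervals of Mxd4 and Bmyc in Tn exclude 0, and those of all 9 members in Treg include it.

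Of 4 further network genes, Mycl and Mlxipl (the carbohydrate-responsive partner of MLX) stayed near the floor and were not tested. Mlxip, which encodes MondoA, was at 149 to 226 CPM in WT Tn and 68.2 to 79.3 CPM in WT Treg, and at 133 to 214 and 63.6 to 77.3 CPM in Aim2-/-. It fell by 1.38 and 1.30 on the log2 scale (edgeR, adjusted p = 4.4e-06 and 4.1e-06). Mga, a large MAX partner with a T-box domain, fell by 0.25 in WT (edgeR, adjusted p = 0.0088), and its value in Aim2-/- was -0.19 (edgeR, adjusted p = 0.19). The Mga call in WT was lost without Treg library 1 (-0.17) or 4 (-0.19), with no filter (-0.20) and with all 16 libraries fitted together (-0.22), while the Aim2-/- value was called without Tn library 3 (-0.35), with upper quartile scaling (-0.35) and in libraries 1 and 2 (-0.28). In the genotype comparisons neither was called.

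Genes that MYC is known to activate rose almost throughout with culture. Of 46 such targets, 43 were higher and 0 lower in WT (median 1.85 on the log2 scale), and 44 were higher and 0 lower in Aim2-/- (median 1.92). Of all genes tested, 37.7% were higher and 39.2% lower in WT (median -0.05), and 39.1% and 40.2% in Aim2-/- (median -0.04). The list, like the other lists, was chosen with earlier results of these data known, so this contrast is a description and no independent test. Odc1, Slc2a1 and Slc3a2 were not called in WT, and Odc1 and Slc3a2 not in Aim2-/-. The largest changes in WT, among targets called the same way in both genotypes, were those of Hk2, Shmt1, E2f1 and Slc7a5. Hk2 is the hexokinase that starts glycolysis, and Shmt1 is a folate-cycle enzyme. E2f1 is a transcription factor of S-phase entry, and Slc7a5 is a transporter of large amino acids. Hk2 rose from 2.06 ± 1.47 to 155 ± 49.8 CPM (SD, n = 4) in WT, 6.20 on the log2 scale, and by 7.23 in Aim2-/-. Shmt1 rose by 4.10 and 4.27, E2f1 by 4.03 and 4.23, and Slc7a5 by 2.96 and 3.24 (edgeR, adjusted p between 2.3e-11 and 3.7e-06 over these 8 values).

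Genes that MYC is known to repress were mixed. Of 9, 8 were tested, of which 4 were lower and 1 higher in WT, and 4 lower and 2 higher in Aim2-/- (medians -0.98 and -0.80), where 76.9% and 79.3% of all genes were called in either direction. The cell cycle inhibitor Cdkn1b (p27) (-2.79 and -2.78 on the log2 scale in WT and Aim2-/-), the stress-response gene Gadd45a (-3.56 and -3.93) and the inhibitor Cdkn1c (p57) fell. Cdkn1c passed the filter on low counts through its Tn libraries; its means were 2.77 and 2.91 CPM in Tn and 0.222 and 0.183 CPM in Treg, where 1 Aim2-/- library, at 0.0674 CPM, was under the floor of 3 counts, so that no fold is given. Cdkn2c (p18), also a cell cycle inhibitor, rose by 3.25 and 3.07. Txnip, which MondoA and MLX are known to activate and which limits glucose uptake, fell from 1500 ± 94.8 to 78.4 ± 13.3 CPM (SD, n = 4) in WT, -4.29 on the log2 scale, and by 4.40 in Aim2-/-, while the values of the second MondoA target, Arrdc4, did not pass.

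Of 18 cofactors and turnover factors of MYC, 8 rose and 3 fell in WT, and 8 rose and 4 fell in Aim2-/- (medians 0.11 and 0.15), a smaller share than the 76.9% and 79.3% of all genes called. Skp2, a ubiquitin ligase subunit that acts on MYC and p27, rose by 3.23 and 3.36. Ruvbl1 and Ruvbl2, ATPases that bind MYC, rose by 2.14 and 2.15 and by 1.75 and 1.84, while Pim1, a kinase that cooperates with MYC, fell by 1.81 and 1.65. Of 15 subunits of the SIN3 corepressor used by the MXD proteins and MNT, 5 rose and 6 fell in WT and 6 rose and 6 fell in Aim2-/- (medians -0.05 and 0.08), close to those shares of all genes. Rbbp7 (2.05 and 2.17) and Sap30 (1.64 and 1.71) were higher, and Arid4a (-1.61 and -1.39) and Arid4b (-1.27 and -1.10) lower. Between genotypes, edgeR called 0 of 92 tested genes of these lists in Tn, 0 of 90 in Treg and 0 of 92 in the interaction, where 0.231%, 0.219% and 0.0205% of all genes were called. By unadjusted p under 0.05 the counts were 7, 2 and 2 (7.61%, 2.22% and 2.17%), against 10.3%, 2.30% and 3.50% of all genes. Limma-voom called 0 in each, and DESeq2 called 2 in Tn, of which Arrdc4 is named here because of that call, and 0 in Treg and the interaction.

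**Figure D5:**
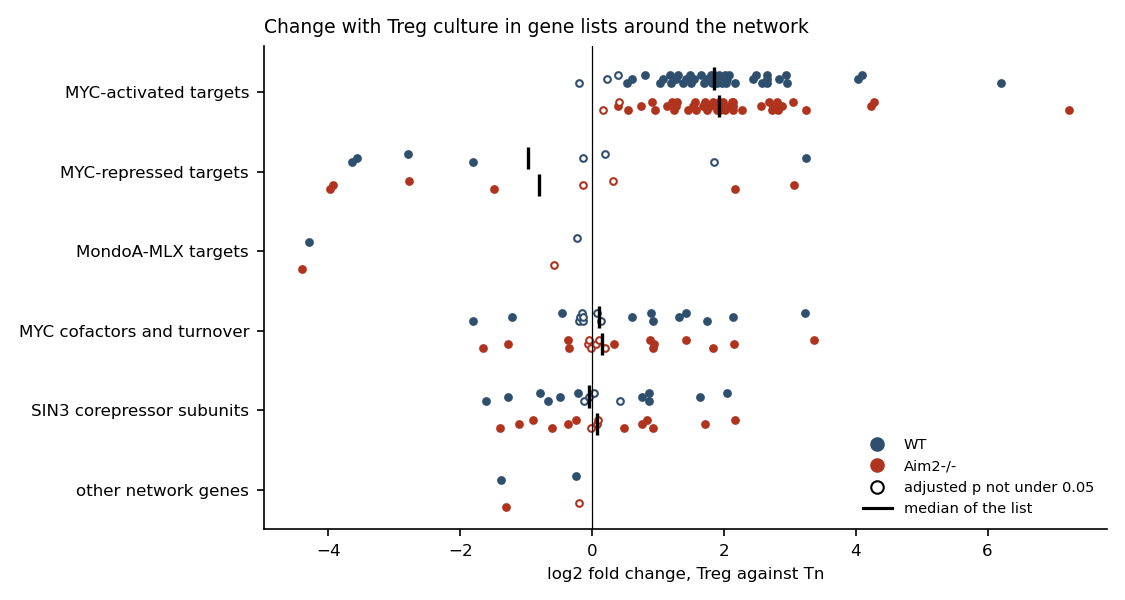
Log2 fold change of Treg against Tn for each tested gene of 6 lists around the network, in WT and Aim2-/- (4 against 4 libraries each); open points did not have an edgeR adjusted p under 0.05, and black bars mark the median of lists with more than 2 genes. Of the 46 targets that MYC activates, 45 in WT and 46 in Aim2-/- lie to the right of 0, with medians of 1.85 and 1.92, and the SIN3 subunits spread to both sides. The lists were chosen with earlier results of these data known.

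The genes whose profile over the 16 libraries lay closest to that of Myc were sought among 11822 genes with a mean of at least 1 CPM, by the root mean square distance of centred log2 CPM. They were Ampd2, an AMP deaminase (0.116), Dcp2, an mRNA decapping enzyme (0.150), Dhrs13 (0.151), Pola2, a subunit of DNA polymerase alpha (0.152), and Sfxn1, a mitochondrial serine carrier (0.154). The median distance over all genes was 1.02. Their rise with culture lay between 1.67 and 1.90 on the log2 scale in both genotypes, and its closeness to that of Myc follows from the selection.

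Since MYC, MXD and MNT dimers with MAX bind the E-box CACGTG, the members' own promoter windows were searched for it. RefSeq windows (GRCm38.p6), from 250 bases before to 50 bases after a start site, were at hand for 9 members (11 windows), Myc being without one. The motif reads the same on both strands. It was present in the windows of 4 of 9 members, Mxd4, Mnt, Mlx and Max, against 8.09% of 27025 genes and 7.15% of 32851 windows. The stretches around the motif are shown 5′ to 3′ on the strand of the gene, with the E-box in capitals, because 3 of these 4 genes encode MAX or partners of it that compete with MYC. They lie at chr5:34187877-34187960 (minus strand) for Mxd4, chr11:74830754-74830853 (plus) for Mnt, chr11:101087203-101087289 (plus) for Mlx and chr12:76962234-76962263 (minus) for Max.

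Mxd4: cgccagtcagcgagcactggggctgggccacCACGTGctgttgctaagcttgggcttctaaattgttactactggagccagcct
Mnt: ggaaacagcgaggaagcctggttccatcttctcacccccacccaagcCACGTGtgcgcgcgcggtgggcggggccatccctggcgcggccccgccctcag
Mlx: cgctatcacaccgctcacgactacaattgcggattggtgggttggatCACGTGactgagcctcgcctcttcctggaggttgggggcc
Max: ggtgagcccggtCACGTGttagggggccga

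The first base of the E-box lies 219 bases upstream of the RefSeq start in Mxd4, 123 in Mnt, 40 in Mlx and 3 in Max, where the motif spans the start. Of the 4 genes, Max was higher and Mxd4 lower with culture in both genotypes, Mnt was lower in WT, and Mlx was not called in either. The members with the motif thus did not change in a common direction. Mxd3, Bmyc, Mxd1, Mycn and Mxi1 had no match in their windows.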

How the data were processed

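The authors sequenced stranded mRNA libraries, mapped the reads to GRCm38 with STAR, quantified genes with RSEM on GENCODE m15 and deposited 1 table of expected counts per library, neither normalized nor filtered. Versions and the strand setting are not given in the sources used here. The members and gene lists were chosen with earlier results of these data known. All 10 members and the genes of the list of other network genes are named. From each further list, up to 4 are named, those with the largest absolute change in WT among genes called the same way in both genotypes.

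Expected counts were rounded to whole numbers. A gene was tested where 4 or more libraries of a comparison had 10 or more counts. The whole table was fitted with edgeR 4.0.16 (R 4.3.3; quasi-likelihood F test, two-sided, robust, TMM), with Benjamini-Hochberg adjustment over all genes tested and a threshold of 0.05. Each comparison used its 8 libraries, and the interaction all 16. Standard errors and 95% intervals come from the same fit. It was tested on simulated data for the genotype comparisons only, not for the culture comparisons or the interaction. CPM uses TMM factors over 16 libraries; exon lengths are unions from GENCODE M21, which held 98.7% of the genes. Floors cover counting error only.

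Alternatives were RLE, upper quartile and library-total scaling, DESeq2 1.42.0, limma-voom (limma 3.58.1), no filter, a minimum of 10 counts in each library, one fit over the 16 libraries, a block for the replicate number, replicates 1 and 2 or 3 and 4 only, and leaving out each library. Results for some list genes are not reported here.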

Additional observations from a re-analysis of the deposited data

Results flagged for a closer look

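In Aim2-/- Tn, Bmyc in library 3 was at 14.7 CPM, while the other libraries of that group were at 10.6, 10.5 and 9.78 CPM. The gap between library 3 and its nearest neighbour was 0.833 of the group's range, above Dixon's 95% critical value for 4 samples. Of 36 groups tested in this way, 1 was set apart, and chance alone does so in about 1 of 20. Without library 3 the Bmyc difference between genotypes in Tn was not called, as it was not with it.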

How the results depend on the processing

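Myc, Mxd3 and Mxd4 kept their direction and their calls in both culture comparisons under every alternative that could be fitted and without any one library. With replicates 1 and 2 only, values changed sign for Mxi1 (-0.01) and Mlx (0.00) in WT culture, for Max (-0.01), Mxd3 (0.02) and Mlx (0.10) between genotypes in Tn, for Myc (-0.02), Mxd4 (0.03) and Mxi1 (-0.03) between genotypes in Treg, and for Mxd1 in the interaction (0.44). With replicates 3 and 4 only, they did so for Mxd1 in WT culture (0.63), Bmyc in Aim2-/- culture (-0.08), Myc (-0.19), Mxd1 (1.18), Mxi1 (0.08) and Mnt (0.08) between genotypes in Tn, Bmyc (-0.14) and Mnt (-0.00) in Treg, and Mnt in the interaction (-0.08). Mlx in Aim2-/- culture was 0.00 with RLE size factors and with DESeq2 and 0.02 with no filter, Mnt between genotypes in Treg was -0.00 with library totals only, and Mxd1 between genotypes in Tn was 0.32 with limma-voom. The cause of these changes was not tested. In the interaction, values under the alternatives were taken only for Bmyc, Mnt, Mxi1 and Mxd1, so sign changes of other members there are not covered.

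Leaving out 1 library, values that changed sign ran from -0.15 to 0.08 for Mlx in Aim2-/- culture. Between genotypes in Tn they ran from -0.01 to 0.30 for Myc, from -0.40 to 0.43 for Mxd1 and from -0.12 to 0.07 for Mlx, and between genotypes in Treg from -0.02 to 0.06 for Myc, from -0.09 to 0.27 for Bmyc and from -0.11 to 0.12 for Mnt. In the interaction, where values were taken only for Bmyc, Mnt, Mxi1 and Mxd1, they ran from -0.57 to 0.28 for Mxd1. The calls over all genes then ran from 17 to 28 between genotypes in Tn, from 10 to 17 in Treg and from 2 to 5 in the interaction.

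Of all genes, those called between genotypes in Tn numbered 127 with DESeq2, 49 with no filter, 18 with 10 counts in every library, 50 with all 16 libraries in one fit, 15 with replicates 1 and 2 only and 509 with replicates 3 and 4 only, against 31. Members called there were 1 with DESeq2 (Mxd4) and 2 with replicates 3 and 4 only (Mxd1 and Mxd4). In Treg the calls numbered 52 with DESeq2, 17 with 10 counts in every library, 15 with replicates 1 and 2 only and 4 with replicates 3 and 4 only, against 29. In the interaction they were 10 with DESeq2 and 0 with 10 counts in every library, against 3.

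By their labels, same-numbered libraries share only the number, and whether they share anything else is not stated. Same-numbered libraries had correlations of their deviations from the group means between -0.04 and 0.15 across culture in WT, between -0.04 and 0.09 in Aim2-/-, between 0.03 and 0.35 across genotype in Tn and between -0.02 and 0.49 in Treg. At most 4 of 8 libraries correlated best with their own number. With the replicate block, 10355, 10862, 29, 41 and 2 genes were called in WT culture, Aim2-/- culture, genotype in Tn, genotype in Treg and the interaction. Under the block, Mxd1 between genotypes in Tn was 0.32, Bmyc in Aim2-/- culture was 0.56 and not called, and Mnt there was -0.36 and called.

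Depth limits Mycn, Mycl and Mlxipl, whose few counts allow no comparison, and the Tn level of Mxd3. Fits on 2 libraries a group rest on little replication, and their p-values leave out the spread between the pairs of library numbers.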
